A study of Mus musculus with 77 samples.

Results

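Mouse nuclear tRNA loci of 12 isotypes (Ala, Arg, Asn, Cys, Gln, Ile, Met, Phe, Pro, Thr, Trp and Tyr) are described here across small RNA and mRNA libraries of tissues and plasma. They were taken as every row of the count files whose name contains ".tRNA" and whose ending after the last hyphen starts with one of these amino acids. That gave 248 of the 435 tRNA loci and of the 55273 features listed. The naming rule itself used no measured value, but the isotypes were chosen with earlier results of these data known. The animals were male mice aged 12 weeks after 2 weeks on a high-fat diet (HFD) or on a low-fat diet (LFD). Every group shared one strain, named FVB.129P2, with the targeted allele Cyp3a13tm1Ahs, the deletion Del(5Cyp3a57-Cyp3a59)1Ahs and, as a transgene, Tg(APOE-CYP3A4)A1Ahs. Each group was one tissue and diet, sequenced as a pull-down or as its input: small RNA of plasma, VsWAT, GAS and liver, and mRNA of kidney and liver. Groups held 3 libraries, except that plasma groups, kidney LFD groups and the liver small RNA pull-down on LFD held 2. The title speaks of labelling, but the labels name neither the labelled compound, nor the cells it marks, nor the pull-down chemistry. They do not say whether libraries of a group came from separate animals, so p-values measure the spread between these libraries, which may in part be technical.

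A tRNA carries one kind of amino acid to the ribosome, and tRNAs that accept the same amino acid form an isotype, within which the anticodon at the end of the locus name separates the isoacceptors. RNA polymerase III transcribes tRNA genes, RNase P and other enzymes trim the ends, and many bases are modified before an aminoacyl-tRNA synthetase charges the tRNA. Angiogenin and related ribonucleases can cut mature tRNAs into fragments, some of which are known from extracellular fluids. A count per locus does not separate a whole tRNA from a fragment.

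The mRNA and small RNA files held 65 libraries. Assigned counts came to 221875 to 828030 per plasma library and 573697 to 3608065 per tissue small RNA library, and tissue libraries carried the markers of their label, with summed adipocyte markers of 2660 to 3720 CPM (the usual scaling of a count to the assigned counts of its library) in VsWAT inputs and summed muscle markers of 11400 to 20600 CPM in GAS inputs. Plasma inputs held 20100 to 42400 CPM of the 5 blood cell markers, against 66.9 to 366 CPM in liver inputs, with none of the 5 at 0. VsWAT inputs held 144 to 1280 CPM of the 5 liver markers, none at 0, and HFD 1, HFD 2 and LFD 1 had over 300 CPM of Alb. Libraries of 3 pairs differed by little more than counting noise (liver mRNA inputs HFD 1 with HFD 3 and LFD 2 with LFD 3, and VsWAT small RNA inputs HFD 1 with HFD 2), and they were also run summed.

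Of the 248 loci, 62 had no count in any library and 117 stayed under 10 counts in every library. Cys had the most loci, 57, of which 24 had a count, the lowest share of the 12 isotypes. On chromosome 6 lie 49 of them, and all 33 Cys loci without a count are there. Ala had 24 of 40 loci with counts, Arg 20 of 24, Asn 12 of 14, Ile 15 of 17, Met 17 of 19, Pro 16 of 18 and Thr 17 of 18. Every Gln (16), Phe (7), Trp (8) and Tyr (10) locus had at least 1 count. How reads that fit several identical tRNA genes were treated, and whether strand was used, is not given in the sources used here, so values of single loci are uncertain and sums by isotype are given first. In GRCm38.p6, RefSeq's assembly of the mm10 build, 61 of the 248 loci could be matched one to one by chromosome and anticodon, and 17 of these overlap another RefSeq gene. The matched genes are 72 to 90 bases long, and counts were not divided by length.

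In small RNA inputs, a single arginine locus held the largest share of the counts. The 12 isotypes took a median of 5.16% of assigned counts in plasma inputs (2.05% to 9.71%), 3.36% in VsWAT inputs (1.95% to 4.48%), 2.11% in GAS inputs (1.29% to 3.15%) and 1.39% in liver inputs (0.692% to 1.91%). Arg made up a median of 71.2% of these counts in plasma, 89.9% in VsWAT, 82.9% in GAS and 54.1% in liver. In such bulk samples, fewer cells of a type and less RNA per cell cannot be told apart. Most Arg input counts came from chr11.tRNA945-ArgCCG (RefSeq n-TRccg1, chromosome 11, 107012866 to 107012938), which reads the CGG codon and lies in no other annotated gene. It alone held 48.2% of the counts of the 12 isotypes in plasma inputs (31.8% to 56.7%), 79.1% in VsWAT inputs (77.3% to 82.8%), 63.8% in GAS inputs (49.8% to 72.7%) and 38.6% in liver inputs (33.5% to 50.9%).

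The next loci differed by tissue. chr6.tRNA107-ArgCCT (n-TRcct1, chromosome 6, 38533931 to 38534003) was among the 3 highest loci in every tissue, with 3180, 9540, 18800 and 6050 CPM in plasma inputs HFD 1, HFD 2, LFD 1 and LFD 2. Its median was 1010 CPM in VsWAT, 2100 CPM in GAS and 1200 CPM in liver inputs, so all plasma libraries lay above all tissue inputs. In VsWAT the remaining place was taken by chr17.tRNA993-ArgCCG (n-TRccg2, chromosome 17, 23550263 to 23550335), at a median of 1510 CPM (635 to 2020). In GAS it was chr2.tRNA1947-AsnGTT (n-TNgtt9, chromosome 2, 18587044 to 18587117), at 1280 CPM (972 to 1600), and in liver it was chr5.tRNA1318-AlaTGC, at 1470 CPM (609 to 2210). In plasma it was chr13.tRNA104-ThrAGT, with 614 and 4060 CPM on HFD and 4100 and 2660 CPM on LFD. The plasma library HFD 1 was the lowest of its group for both Arg loci and for this Thr locus.

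**Figure D1:**
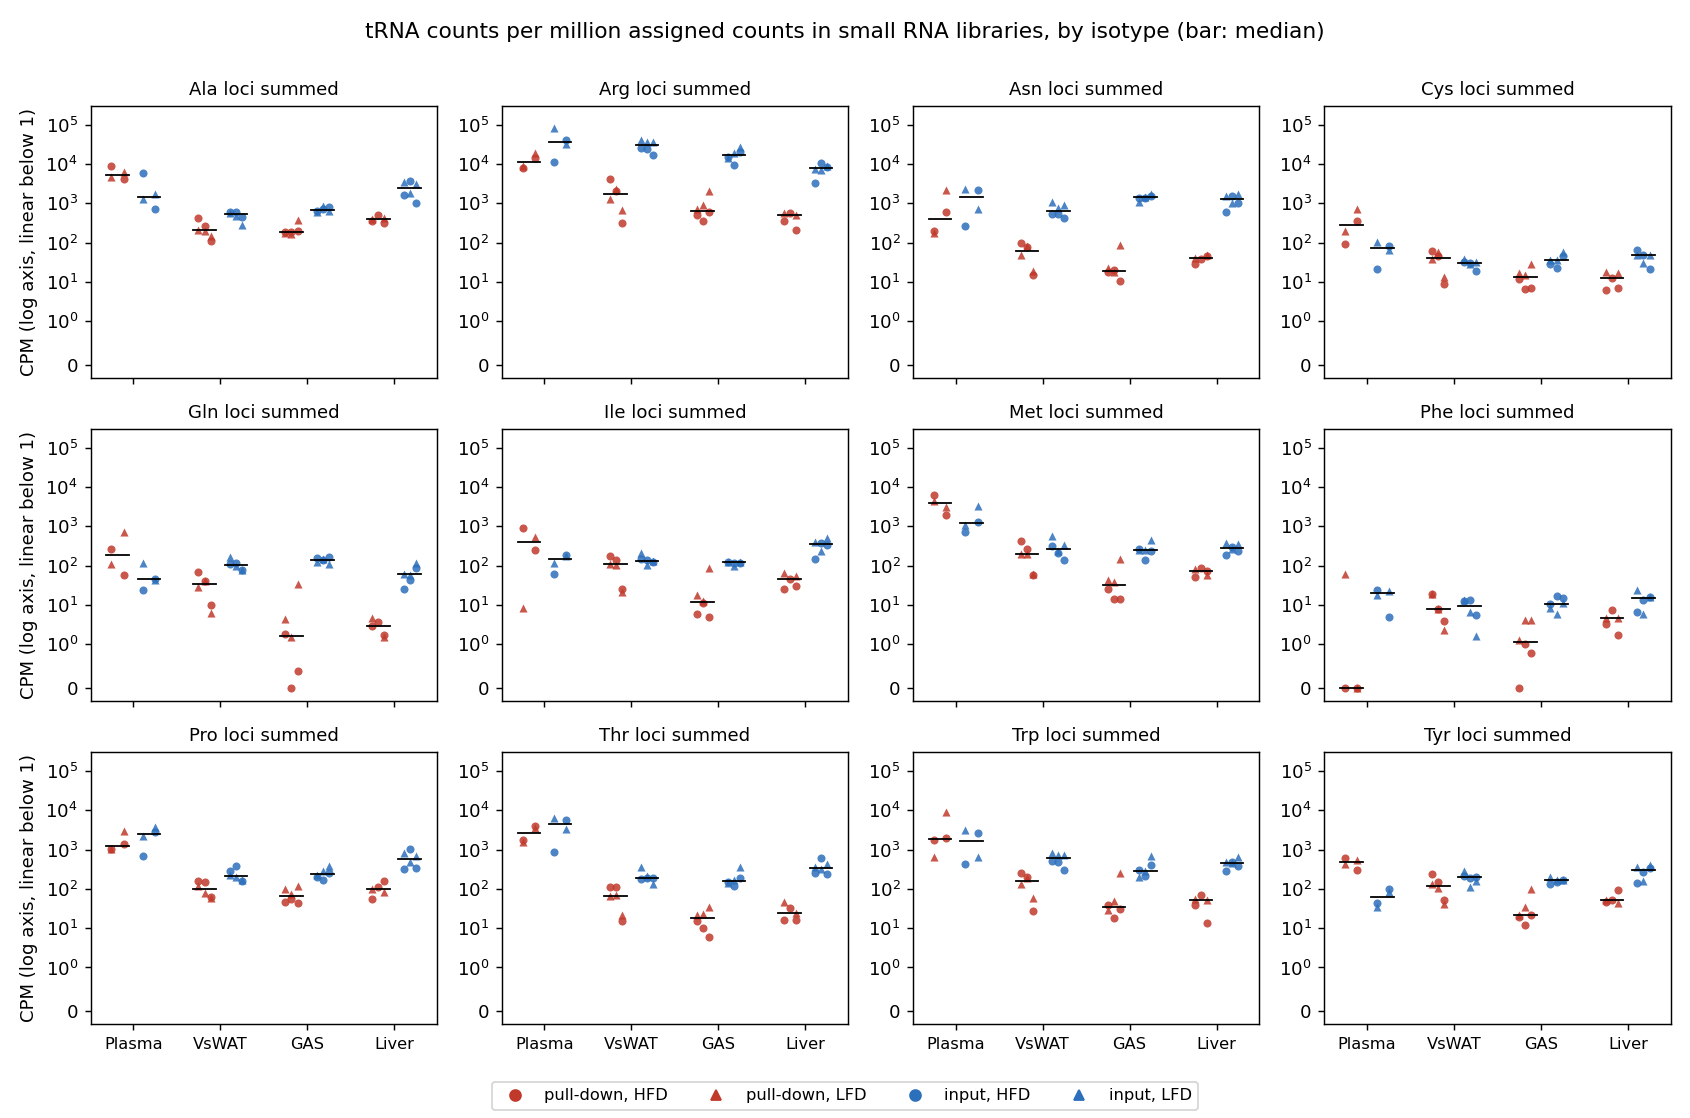
Summed counts of each isotype in CPM of assigned counts (log axis, linear below 1), 1 point per small RNA library, for pull-down (red) and input (blue) of plasma, VsWAT, GAS and liver; circles are HFD, triangles LFD, and bars mark medians. Arg inputs lie highest in every tissue, and pull-down points lie under input points for most isotypes in GAS and liver but not in plasma.

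The pull-downs of liver and GAS held less of every isotype than their inputs. In liver the 12 isotypes took a median of 0.133% of assigned counts in pull-down (0.0957% to 0.156%) and 1.39% in input. GAS had 0.105% in pull-down (0.068% to 0.33%) and 2.11% in input, and VsWAT 0.294% in pull-down (0.0697% to 0.621%) and 3.36% in input. No tissue pull-down library reached the lowest input library of its tissue. Plasma pull-downs held 2.94% (2.24% to 4.88%) and plasma inputs 5.16%, and these ranges overlapped.

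Arg sums showed the gap most plainly. Liver pull-downs had 356, 582 and 207 CPM on HFD and 578 and 516 CPM on LFD, against 3290, 10700 and 8280 CPM on HFD and 7520, 7000 and 8800 CPM on LFD in liver inputs. In GAS the pull-down libraries lay at 347 to 2050 CPM (median 658) and the inputs at 9700 to 26800 CPM (median 17500). VsWAT pull-downs lay at 312 to 4180 CPM (median 1690) and VsWAT inputs at 17400 to 40500 CPM (median 30700). Pull-down and input did not overlap in any of the 3 tissues, and HFD 3 was the lowest VsWAT pull-down while LFD 3 was the highest GAS pull-down. Asn behaved likewise in liver, with 28.8 to 48.4 CPM in pull-down and 618 to 1780 CPM in input, and in GAS, with 10.5 to 85.2 CPM in pull-down and 1090 to 1750 CPM in input.

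The pull-down model (edgeR quasi-likelihood test with diet as a term, TMM scaling, Benjamini-Hochberg adjusted p under 0.05 over all rows of the table) called all 12 sums lower in liver pull-down, where 27.9% of all rows were called lower and 54.5% in either direction. Log2 fold changes in liver were -6.07 for Asn, -5.51 for Gln, -5.22 for Arg, -4.84 for Thr, -4.37 for Trp, -4.04 for Ile, -3.68 for Pro, -3.67 for Ala, -3.52 for Tyr, -3.14 for Met, -2.94 for Cys and -2.68 for Phe, with SE of 0.26 to 0.51. In GAS pull-down all 12 sums were called lower too (26.3% of all rows, and 54% in either direction): -6.68 for Asn, -5.60 for Gln, -5.39 for Arg, -4.35 for Thr, -3.65 for Met, -3.57 for Ile, -3.52 for Phe, -3.46 for Trp, -3.33 for Tyr, -2.77 for Pro, -2.71 for Ala and -2.37 for Cys, with SE of 0.21 to 0.91. Asn, Gln, Arg and Thr thus had the 4 largest falls in both tissues, and Cys was last or next to last. Scaling to total assigned counts raised the median over all features by 1.12 in liver and 0.90 in GAS on the log2 scale and kept all 12 sums lower in both, from -4.92 for Asn to -1.51 for Phe in liver and from -5.76 for Asn to -1.47 for Cys in GAS.

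In VsWAT pull-down not every isotype passed. Of the 12 sums 8 were called lower and none higher, where 23.1% of all rows were called lower and 44.3% in either direction: Arg -4.65, Asn -4.24, Trp -2.62, Gln -2.40, Thr -2.32, Pro -1.81, Ala -1.74 and Tyr -1.38 (SE 0.26 to 0.62). Cys had 60.2, 46.1 and 9.09 CPM on HFD and 37.4, 58.3 and 13.6 CPM on LFD in pull-down, against 32.0, 30.6 and 18.7 CPM on HFD and 39.6, 28.7 and 31.7 CPM on LFD in input. Its log2 fold change of -0.34 ± 0.43 (SE) was not called (edgeR adjusted p = 0.543), and neither were Phe at -0.48, Met at -1.20 and Ile at -1.26 (edgeR adjusted p = 0.48, 0.113 and 0.0704). With total-count scaling 7 sums stayed lower, Tyr at -0.75 did not pass, and Cys and Phe had positive signs (0.30 and 0.13) without a call.

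In plasma pull-down 4 of the 12 sums were called lower and none higher, where 2.93% of all rows were called lower, 1.09% higher and 4.02% in either direction: Arg at -3.88 ± 0.50, Asn at -3.26 ± 0.69, Thr at -2.81 ± 0.59 and Pro at -2.70 ± 0.63 on the log2 scale (± SE, edgeR adjusted p = 7.44e-12, 0.000272, 0.000254 and 0.00149). Arg had 7940 and 14000 CPM on HFD and 8990 and 19100 CPM on LFD in pull-down, against 11400 and 40300 CPM on HFD and 80400 and 33300 CPM on LFD in input. The lowest Arg input, HFD 1, lay inside the pull-down range. The Arg call held without any single library and with total-count scaling (-1.63, edgeR adjusted p = 0.00612). The other 3 calls were lost without plasma input HFD 2, and with total-count scaling they were -0.97 for Asn, -0.55 for Pro and -0.57 for Thr, none of them called. The median over all features was 1.94 higher with that scaling.

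The other 8 plasma sums were not called, and for 7 of them the sign depended on the scaling or was positive. Tyr had 620 and 308 CPM on HFD and 428 and 527 CPM on LFD in pull-down, against 42.8 and 99.0 CPM on HFD and 33.9 and 84.6 CPM on LFD in input, so every pull-down library lay above every input library. The inputs held only 14 to 82 Tyr counts per library, and the loci that made up the sum differed between pull-down libraries. The log2 fold change of Tyr was 0.75 ± 1.04 with TMM scaling and 2.85 with total-count scaling, called by neither (edgeR adjusted p = 0.857 and 0.0518). Ala had 9050 and 4060 CPM on HFD and 4730 and 6120 CPM on LFD in pull-down, against 5970 and 717 CPM on HFD and 1260 and 1710 CPM on LFD in input; its sign was -0.60 with TMM and 1.42 with total counts. Phe was counted in only 1 plasma pull-down library, LFD 1, at 60.5 CPM. Met, Ile, Cys, Gln and Trp had log2 fold changes of -0.69, -0.65, 0.09, -0.08 and -1.52 with TMM, and all 5 were positive with total counts.

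**Figure D2:**
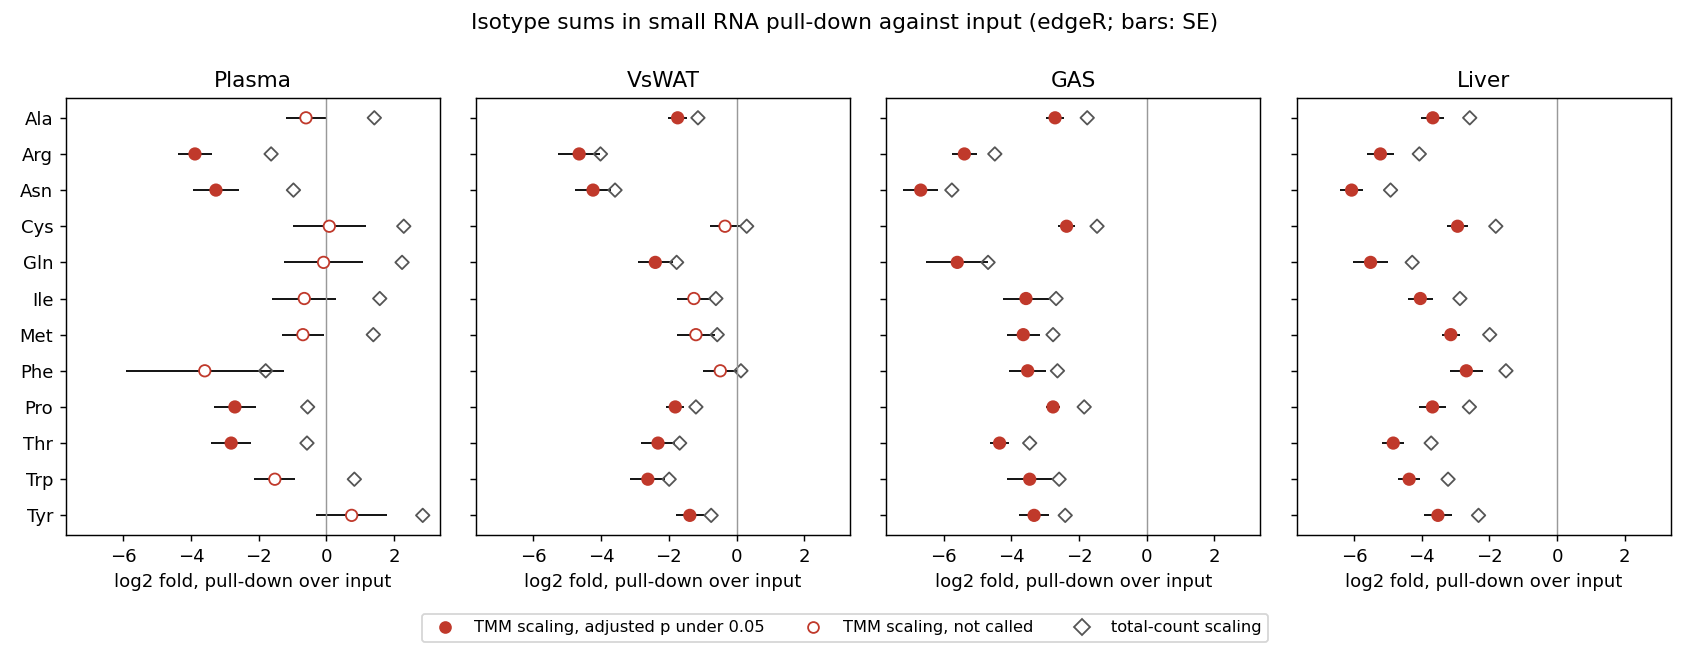
Log2 fold change of each isotype sum, pull-down over input, in plasma, VsWAT, GAS and liver (edgeR; horizontal bars are SE of the TMM estimate; diamonds give total-count scaling). All 12 sums in GAS and liver lie left of 0 under both scalings, whereas in plasma only Arg is called under both.

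The make-up of the tRNA counts also differed. Arg held a median of 37.3% of the counts on the 12 isotypes in liver pull-down, 59.9% in VsWAT pull-down, 61.9% in GAS pull-down and 39.6% in plasma pull-down, each under the input shares above. Ala took 32.2% in liver pull-down and 18.9% in liver input, 8.16% in VsWAT pull-down and 1.74% in VsWAT input, 17.9% in GAS pull-down and 3.53% in GAS input, and 17.6% in plasma pull-down and 2.46% in plasma input. Met took 13.3% of plasma pull-down counts and 2.97% of plasma input counts. These shares need no scaling between libraries, and they are given as a description, without a test. The 12 isotypes held a median of 43.8% of all tRNA counts in liver pull-down and 54.2% in liver input, 46.4% in VsWAT pull-down and 76.4% in VsWAT input, 50.8% in GAS pull-down and 73.8% in GAS input, and 51.4% in plasma pull-down and 52.1% in plasma input.

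**Figure D3:**
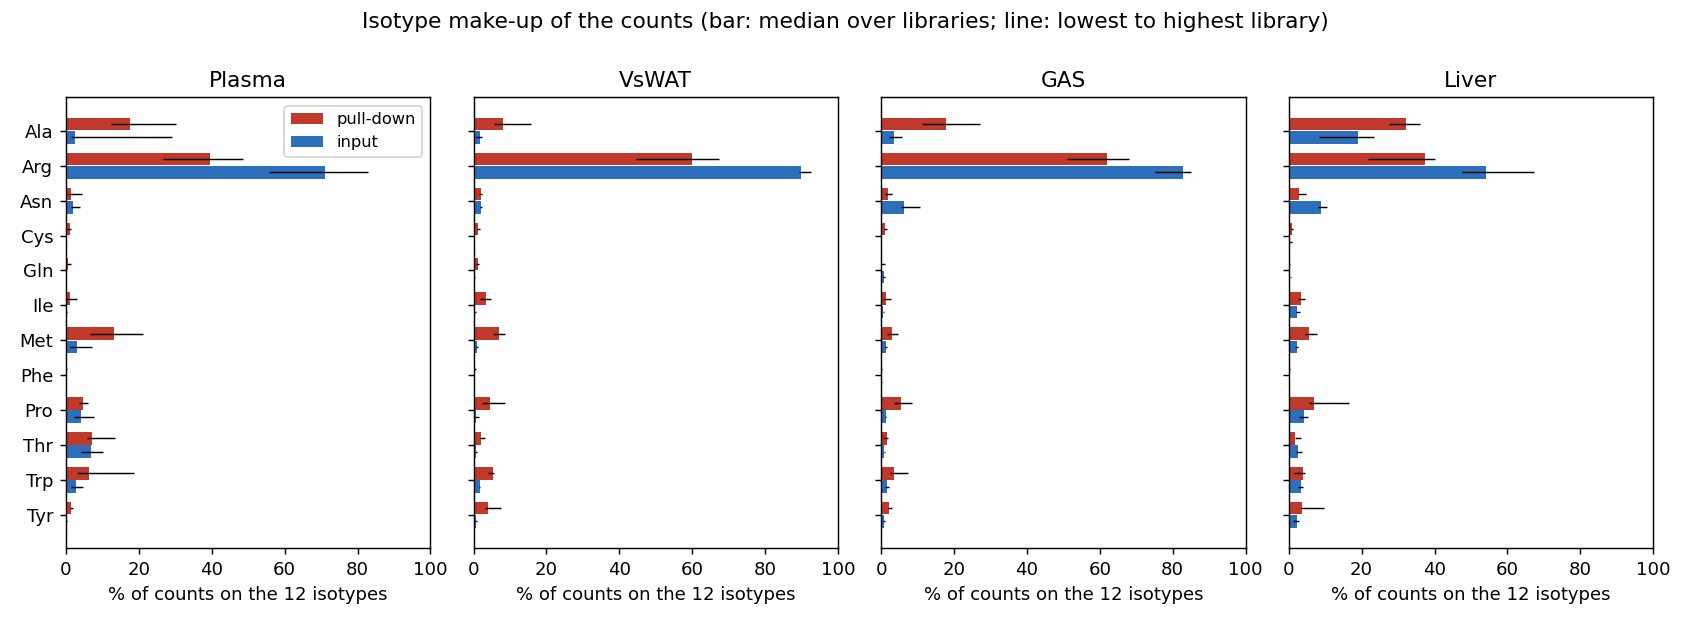
Share of the counts on the 12 isotypes held by each isotype, in percent, for pull-down (red) and input (blue); bars are medians over libraries and lines run from the lowest to the highest library. The Arg bar is shorter and the Ala bar longer in pull-down than in input in all 4 sample types.

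Single loci were mostly lower in the tissue pull-downs too. In liver pull-down 65 of the 248 loci passed the filter on low counts and all 65 were called lower (28.4% of all features, and 55.5% in either direction), 59 of them also with total-count scaling. A locus counted only in input could enter this test only as lower, and 32 of the 65 averaged under 10 counts per pull-down library, so the count is a description. In GAS pull-down 53 loci were tested and 52 called lower (26.5% of all features); 28 averaged under 10 counts in pull-down. The exception, named after its value was seen, was chr4.tRNA622-AlaCGC at 0.52 (edgeR adjusted p = 0.462); with total-count scaling it was called higher, at 1.35 (edgeR adjusted p = 0.038). The medians of these loci were -3.78 in liver and -3.89 in GAS on the log2 scale, against 0.10 and 0.06 for all features tested and -3.97 and -3.45 for the tRNA loci of the remaining isotypes.

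chr3.tRNA757-AsnGTT stood at the far end. It had no count in the 5 liver pull-down libraries and 18.1 to 105 CPM (median 54.1) in liver inputs, which makes it at least 180-fold lower against a floor of 3 counts over the pull-down libraries. In GAS it had no count in 6 pull-down libraries and 89.0 to 154 CPM (median 129) in inputs, at least 528-fold lower. In VsWAT 19 counts remained in pull-down, 0 to 4.18 CPM against 53.4 to 110 CPM in input (log2 fold change -6.46 ± 0.39, edgeR adjusted p = 1.66e-08). The main Asn locus, chr2.tRNA1947-AsnGTT, kept more in liver, at 25.8 to 44.5 CPM in pull-down and 581 to 1630 CPM in input (-6.10 ± 0.34).

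chr11.tRNA1493-GlnTTG was nearly absent from every tissue pull-down. Liver pull-downs held 2 counts of it in all, VsWAT pull-downs 3 and GAS pull-downs 2, while inputs held a median of 35.9 CPM in liver, 30.2 CPM in VsWAT and 108 CPM in GAS. The counts scaled to assigned counts came to 0.532% of the input level in liver (exact binomial 0.0642% to 1.94%, for counting error only), 0.641% in VsWAT (0.131% to 1.89%) and 0.159% in GAS (0.0192% to 0.576%). In liver this locus made up a median of 61.9% of Gln input counts, and in GAS 72.5%.

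The remaining named falls were Arg loci. chr13.tRNA960-ArgTCG had 0 to 3.12 CPM in liver pull-down and at least 41.9 CPM in every liver input (-7.22 ± 0.57, edgeR adjusted p = 1.46e-06). chr11.tRNA1023-ArgTCG (n-TRtcg4, chromosome 11, 115413779 to 115413851) had 2.01 to 32.2 CPM in GAS pull-down and 427 to 926 CPM in GAS input (-7.17 ± 0.76, edgeR adjusted p = 2.09e-05). chr11.tRNA945-ArgCCG had 178 to 2450 CPM in VsWAT pull-down and 15400 to 35400 CPM in VsWAT input (-5.15 ± 0.63, edgeR adjusted p = 4.78e-05), and its falls were 5.85 in liver and 5.77 in GAS on the log2 scale. None of these ranges overlapped.

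Loci of the same isoacceptor could differ. chr5.tRNA1318-AlaTGC and chr5.tRNA703-AlaTGC were the main Ala loci of liver, and both were named for their tissue differences, not for the pull-down. chr5.tRNA1318-AlaTGC had 41.0 to 81.3 CPM in liver pull-down and 609 to 2210 CPM in liver input (-5.71 ± 0.39). chr5.tRNA703-AlaTGC had 181 to 376 CPM in liver pull-down and 205 to 1170 CPM in liver input (-2.37 ± 0.37), so its ranges overlapped. In GAS chr5.tRNA703-AlaTGC had 86.8 to 214 CPM in pull-down and 142 to 196 CPM in input, and its change of -1.26 ± 0.25 became -0.34 without a call (edgeR adjusted p = 0.126) with total-count scaling. The share of chr5.tRNA1318-AlaTGC among Ala counts was 13.6% in liver pull-down (11.5% to 18.6%) and 59.4% in liver input (58.9% to 61.7%), 17.1% in GAS pull-down and 47.6% in GAS input, and 7.12% in VsWAT pull-down and 32.0% in VsWAT input. This contrast was chosen after its values were seen and was not tested.

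In VsWAT pull-down 83 loci were tested, with 52 called lower and 3 higher (23.2% and 21.3% of all features). Every one of the 3 higher loci carries Pro, with mean counts under 20: chr14.tRNA711-ProAGG at 3.39, chr1.tRNA672-ProAGG at 2.82 and chr11.tRNA207-ProTGG at 1.48. chr14.tRNA711-ProAGG averaged 8.87 ± 6.44 CPM in pull-down and 0.485 ± 0.408 CPM in input (SD, n = 6 each). The 3 Pro loci fall outside the rule for named loci and were named after their values were seen, and their shared isotype was not tested. Of the 83 loci 24 averaged under 10 counts per pull-down library and 23 under 10 per input library. A locus counted almost only in pull-down could enter this test only as higher, so these numbers are a description. Without the libraries of high Alb 71 loci were tested, none was called higher and 45 were called lower; total-count scaling gave 5 higher and 36 lower. The median over the 83 loci was -1.72, against 0.01 for all features.

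Plasma pull-down had 58 loci tested and 10 called lower, none higher (2.91% of all features lower, 1.01% higher and 3.92% in either direction), with a median of -0.83 against 0.10 for all features. Of the 58 loci 11 averaged under 10 counts per pull-down library and 20 under 10 per input library. chr11.tRNA945-ArgCCG had 3070 and 8880 CPM on HFD and 3140 and 11200 CPM on LFD in pull-down, against 6520 and 26700 CPM on HFD and 55100 and 23000 CPM on LFD in input (-4.09 ± 0.55, edgeR adjusted p = 9.97e-11, and -1.96 with total counts, edgeR adjusted p = 0.00172). chr17.tRNA994-ArgCCT (n-TRcct2, chromosome 17, 23548768 to 23548840) had 88.1 to 377 CPM in pull-down and 217 to 1580 CPM in input (-4.10 ± 0.84, edgeR adjusted p = 0.000127). chr11.tRNA396-ProCGG (n-TPcgg3, chromosome 11, 69040385 to 69040456) had 0 to 248 CPM in pull-down and 33.6 to 702 CPM in input (-4.63 ± 1.02, edgeR adjusted p = 0.000622). The calls on chr17.tRNA994-ArgCCT and chr11.tRNA396-ProCGG were lost without plasma input HFD 2 and with total-count scaling, under which chr11.tRNA945-ArgCCG and chr6.tRNA107-ArgCCT were called lower and chr13.tRNA960-ArgTCG (3.17) and chr3.tRNA792-MetCAT (2.34) higher. Their edgeR adjusted p was 0.0417 and 0.0301, against 0.793 and 0.952 with TMM. Both overlapped: chr13.tRNA960-ArgTCG had 482 and 6.04 CPM on HFD and 73.4 and 1550 CPM on LFD in pull-down, and 3.06 to 88.2 CPM in input. chr3.tRNA792-MetCAT had 293 to 3990 CPM in pull-down and 147 to 708 CPM in input. Of the 10 calls 8 were lost without some library, and leaving out each library in turn gave 2 to 13 calls: 2 without input HFD 2, and 6 without input LFD 1 or pull-down LFD 1.

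Inputs of plasma, VsWAT and GAS were each set against liver inputs, with the same 6 liver libraries in all 3 comparisons. Plasma held more of 8 isotype sums than liver and less of none at the adjusted p used, where 23.7% of all rows were higher and 34.6% lower. Thr had 859 and 5710 CPM on HFD and 6230 and 3380 CPM on LFD in plasma, against 238 to 612 CPM (median 341) in liver, with no overlap and a log2 fold change of 4.85 ± 0.60 (edgeR adjusted p = 3.99e-07). Arg rose by 3.75 ± 0.60, with plasma inputs at 11400 to 80400 CPM and liver inputs at 3290 to 10700 CPM. Met had 731 and 1330 CPM on HFD and 1110 and 3330 CPM on LFD in plasma, against 185 to 383 CPM in liver (3.50 ± 0.44). Trp at 3.40 and Pro at 3.16 were the other rises above 3, and Cys at 1.99, Asn at 1.58 and Phe at 1.36 were smaller. With total-count scaling the median over all features shifted by -1.09; it left Arg, Met, Pro, Thr and Trp higher and called Ile (-1.28) and Tyr (-2.07) lower. The Asn call was lost without any of 4 single libraries and the Phe call without any of 6.

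The leading Ala locus of plasma inputs was not that of liver inputs, as was also so for Gln, Met, Thr, Trp and Tyr. The Ala sum did not differ by the test (1.07 ± 0.57, edgeR adjusted p = 0.112; -0.09 with total counts). chr4.tRNA622-AlaCGC (n-TAcgc3, chromosome 4, 132125259 to 132125330, within the bounds of Oprd1) had 5740 and 321 CPM on HFD and 801 and 906 CPM on LFD in plasma, against 2.27 to 11.4 CPM (median 8.13) in liver, and rose by 9.04 ± 0.86 on the log2 scale (edgeR adjusted p = 5.70e-08). It took a median of 58.3% of Ala counts in plasma inputs (44.8% to 96.2%), 1.52% in VsWAT inputs, 0.724% in GAS inputs and 0.285% in liver inputs (0.141% to 0.514%). The reverse held for chr11.tRNA2022-AlaTGC (n-TAtgc9, chromosome 11, 48834429 to 48834500, within the bounds of Trim7), with 7 counts in all plasma inputs and 60.0 to 183 CPM in liver inputs (-4.16 ± 0.58), and for chr13.tRNA967-AlaCGC, with 5 counts in plasma and up to 58.0 CPM in liver (-2.79 ± 0.60). Without chr4.tRNA622-AlaCGC, the Ala sum was -1.24 in plasma.

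Among Thr loci chr13.tRNA81-ThrAGT had 128 and 484 CPM on HFD and 470 and 378 CPM on LFD in plasma, against 0 to 3.33 CPM in liver (9.03 ± 0.65, edgeR adjusted p = 7.52e-10). chr13.tRNA104-ThrAGT, described above for plasma, had 26.1 to 158 CPM in liver (6.59 ± 0.70, edgeR adjusted p = 9.22e-08). It made up 71.3% of Thr counts in plasma inputs (65.9% to 78.6%) and 17.2% in liver inputs (10.9% to 64.1%), and the liver library at 64.1% was HFD 1. chr16.tRNA50-ThrCGT led Thr in liver instead, at 53.9% (21.2% to 63.9%), and held 13.1% in plasma (4.26% to 21.9%). chr11.tRNA1493-GlnTTG had 2 counts in plasma and 19.3 to 87.9 CPM in liver. That is 2.23% of the liver level, with an exact binomial interval of 0.269% to 8.11%.

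Of 71 loci tested between plasma and liver inputs 40 were called higher and 11 lower, where 24.2% and 34.4% of all features were; total-count scaling gave 30 and 21. The median over these loci was 1.78, the same as for the tRNA loci of the remaining isotypes, and that of all features -0.38. The filter left 177 loci untested, and of the 71 tested 30 averaged under 10 counts per plasma library and 15 under 10 per liver library. The blood cell markers given above move with this comparison, and their part in it was not tested.

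VsWAT inputs held more Arg than liver inputs and less of 9 other sums, where 32.8% of all rows were higher and 31.3% lower. Arg had 25100, 23800 and 17400 CPM on HFD and 40500, 36800 and 36300 CPM on LFD in VsWAT, all above the 10700 CPM of the highest liver library, at 1.03 ± 0.35 (edgeR adjusted p = 0.0139); without chr11.tRNA945-ArgCCG its sum was at -0.15. Ala had 284 to 616 CPM in VsWAT (median 528) and 1010 to 3710 CPM in liver (median 2490), at -3.18 ± 0.36 (edgeR adjusted p = 9.81e-08). The falls of Pro (2.26), Ile (2.10), Asn (1.75), Thr (1.69), Tyr (1.44), Phe (1.39), Cys (1.36) and Met (0.89) were smaller. With total-count scaling the median over all features shifted by 0.85; it kept Ala, Asn, Ile, Pro and Thr lower, called Gln higher beside Arg and put Met at 0.01.

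Of 72 loci 15 were higher and 46 lower in VsWAT than in liver (32.9% and 31.4% of all features), and 22 and 27 with total counts. Of the 72 loci 12 averaged under 10 counts per VsWAT library and 16 under 10 per liver library. A locus counted in a single tissue could enter this test only as higher there, so these numbers are a description. chr3.tRNA283-AsnGTT had 18.7 to 46.7 CPM in VsWAT and 0 to 3.42 CPM in liver (4.50 ± 0.37). chr13.tRNA997-ArgTCT (n-TRtct3, chromosome 13, 21917162 to 21917247) had 22.9 to 45.9 CPM in VsWAT and 0 to 1.74 CPM in liver (4.19 ± 0.38). Each of these loci had only 8 counts in all liver inputs. chr17.tRNA993-ArgCCG had 635 to 2020 CPM in VsWAT and 63.5 to 165 CPM in liver (2.66 ± 0.30). In the other direction stood chr5.tRNA1318-AlaTGC (72.3 to 206 CPM in VsWAT and 609 to 2210 CPM in liver, -4.11 ± 0.37), chr5.tRNA703-AlaTGC (-3.92 ± 0.38) and chr13.tRNA970-TyrGTA (-3.31 ± 0.32). The ranges of these 6 loci did not overlap between VsWAT and liver. Without the VsWAT libraries of high Alb 13 loci were higher and 50 lower of 84 tested.

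GAS inputs held more Arg (1.24 ± 0.31) and Gln (1.16 ± 0.32) than liver inputs and less Ala, Ile, Pro, Thr and Tyr, where 32.0% of all rows were higher and 31.6% lower. Gln had 158, 140 and 166 CPM on HFD and 127, 148 and 112 CPM on LFD in GAS, against 24.9, 44.2 and 88.7 CPM on HFD and 63.3, 59.0 and 121 CPM on LFD in liver. Only liver LFD 3 reached into the GAS range. Ala was at -1.64 ± 0.32, Ile at -1.42 ± 0.28, Pro at -1.20 ± 0.28, Thr at -0.93 ± 0.26 and Tyr at -0.72 ± 0.29, the last lost without any of 6 single libraries. The same 7 sums passed with total counts, where the median over all features shifted by -0.09.

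Among the 60 loci tested, 11 were higher and 28 lower in GAS than in liver (32.4% and 31.4% of all features). Of these 60 loci 15 averaged under 10 counts per GAS library and 5 under 10 per liver library, so the same limit of the filter applies. chr19.tRNA8-AlaAGC (n-TAagc9, chromosome 19, 3576263 to 3576335) had 25.9 to 39.5 CPM in GAS and 4.16 to 16.5 CPM in liver (2.31 ± 0.35), chr17.tRNA993-ArgCCG 172 to 840 CPM in GAS and 63.5 to 165 CPM in liver (1.97 ± 0.29), and chr11.tRNA945-ArgCCG 6430 to 22900 CPM in GAS and 2320 to 8300 CPM in liver (1.35 ± 0.33). Lower were chr13.tRNA985-ArgACG, at up to 21.1 CPM in GAS and 54.4 to 177 CPM in liver (-2.42 ± 0.28), chr5.tRNA1318-AlaTGC (232 to 409 CPM in GAS and 609 to 2210 CPM in liver) and chr5.tRNA703-AlaTGC (-1.95 ± 0.34). One more locus set liver apart by its share: chr8.tRNA788-MetCAT held 29.7% of Met counts in liver inputs (27.6% to 36.4%), against medians of 8.32% in plasma, 8.76% in VsWAT and 8.03% in GAS inputs, whose highest library was at 13.1%. That share was picked after its values were seen and has no test.

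**Figure D4:**
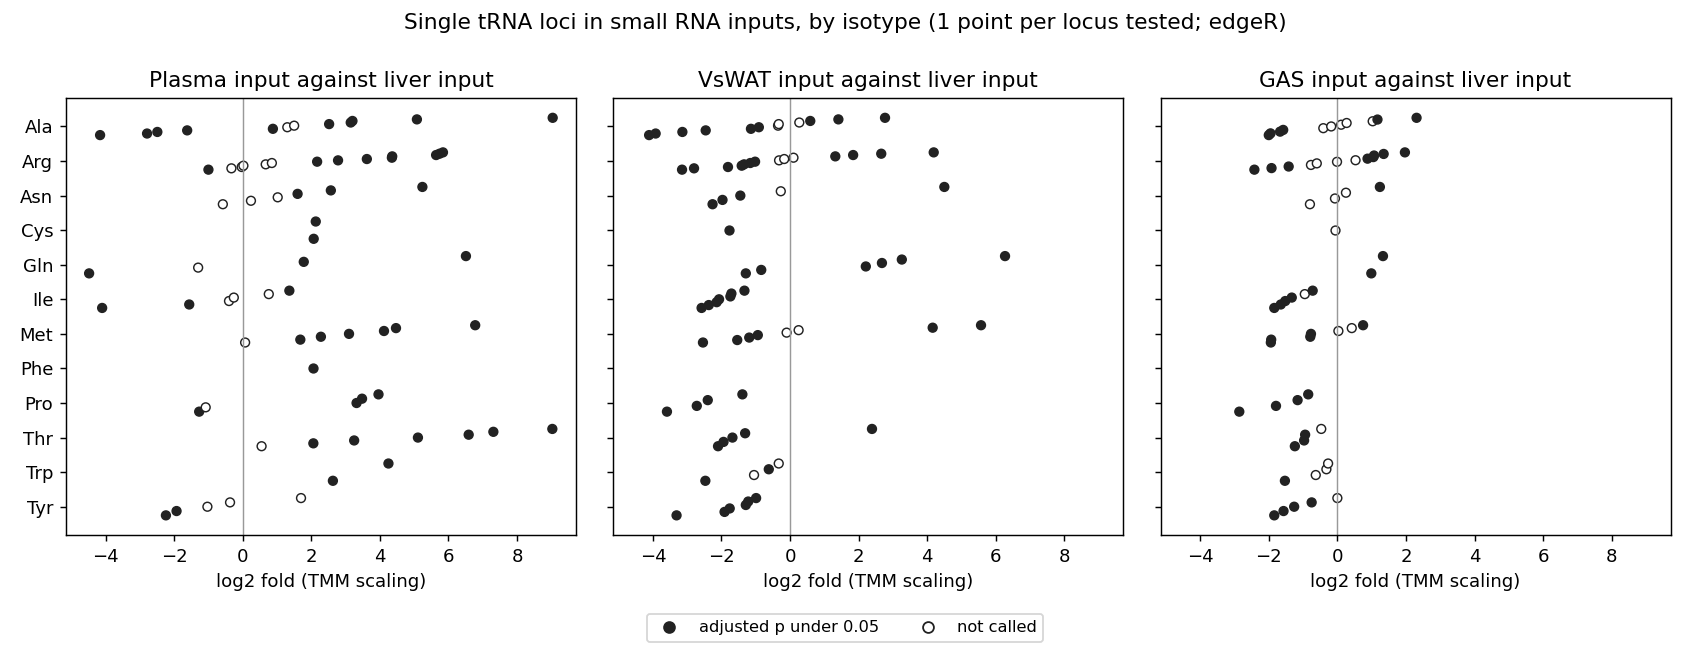
Log2 fold change (edgeR, TMM scaling) of each tested locus between inputs of plasma, VsWAT or GAS and inputs of liver, 1 point per locus in the row of its isotype; filled points passed the adjusted p of 0.05. Ala loci of plasma spread from -4.16 to 9.04, and most VsWAT points lie left of 0.

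Few of these values differed between diets by the test. Over the 8 small RNA comparisons of HFD with LFD, 91 isotype sums could be tested and none was called (edgeR quasi-likelihood test); 12 had an unadjusted p under 0.05 and 11 had diet groups that did not overlap. In these comparisons 0% to 0.741% of all rows were called. Each HFD group had at most 3 libraries, and so did each LFD group, so groups this small can fail to overlap by chance. The shares of all rows without overlap or with a low unadjusted p are not given here. The counts of 12 and 11 therefore cannot show whether the isotype sums stand out.

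Of those 12 low p-values, 4 were in VsWAT input and 7 in GAS pull-down. In VsWAT input Arg had 25100, 23800 and 17400 CPM on HFD and 40500, 36800 and 36300 CPM on LFD (-0.85 ± 0.24, edgeR adjusted p = 0.237). Asn had 524, 527 and 431 CPM on HFD and 1100, 746 and 925 CPM on LFD (-0.98 ± 0.23, edgeR adjusted p = 0.118), and Trp 517, 490 and 294 CPM on HFD and 799, 720 and 716 CPM on LFD (-0.86 ± 0.22, edgeR adjusted p = 0.159). In these 3 isotypes every HFD library lay under every LFD library, with no call. HFD 1 and HFD 2 are the near-identical pair of VsWAT inputs, so the spread may be understated and the lack of overlap rests on fewer separate libraries. HFD 1, HFD 2 and LFD 1 are also the libraries of high Alb. In GAS pull-down all 10 sums tested had negative signs, from -2.38 ± 0.89 for Ile to -0.27 for Ala. Arg there had 500.0, 347 and 600.0 CPM on HFD and 716, 929 and 2050 CPM on LFD (-1.33 ± 0.41, edgeR adjusted p = 0.283), and LFD 3 was the highest pull-down library for most isotypes.

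**Figure D5:**
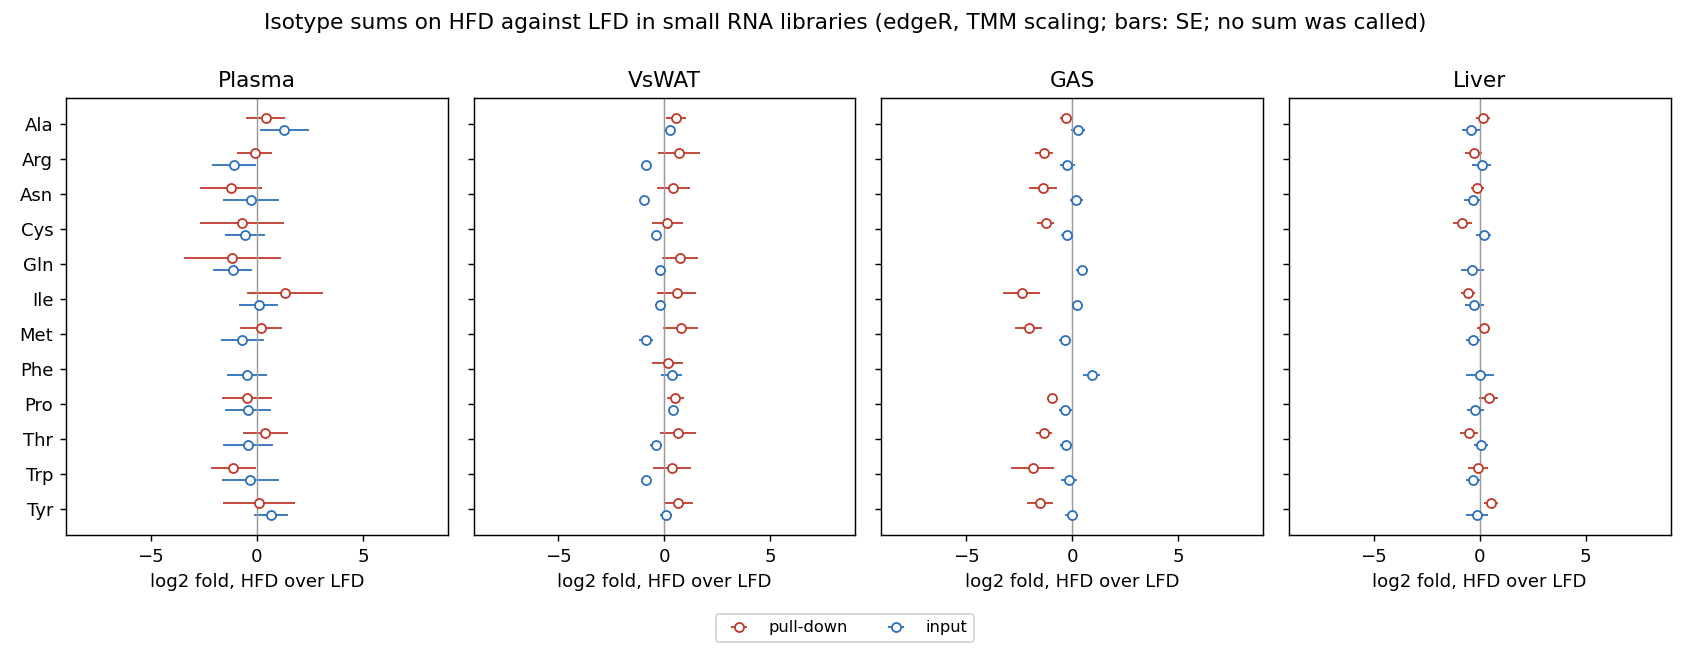
Log2 fold change of each isotype sum on HFD over LFD in pull-down (red) and input (blue) small RNA libraries of plasma, VsWAT, GAS and liver, with SE bars (edgeR, TMM scaling); sums that failed the filter on low counts have no point. No sum was called, and the plasma bars are the widest.

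A single locus was called for diet. chr13.tRNA960-ArgTCG had 50.5, 37.4 and 28.1 CPM on HFD and 118, 75.4 and 73.1 CPM on LFD in VsWAT inputs (-1.26 ± 0.23, edgeR adjusted p = 0.036), 1 lower of 60 loci tested, where 0.125% of all features were called lower. The call was lost with total-count scaling (-1.20, edgeR adjusted p = 0.0522), with near-identical libraries summed, with the dispersion of all 4 groups, without the libraries of high Alb, and without HFD 1, HFD 2, HFD 3 or LFD 3; without LFD 1 there were 2 calls and without LFD 2 there were 7. In the other small RNA sets no locus was called, of 56 tested in liver input, 41 in liver pull-down, 59 in VsWAT pull-down, 44 in GAS input, 17 in GAS pull-down, 43 in plasma input and 47 in plasma pull-down (edgeR; unadjusted p under 0.05 for 1, 3, 4, 3, 5, 0 and 1 in that order). Of all features 0.111%, 0.0545%, 0.103%, 0.276%, 0.718%, 0% and 0% were called in these sets. The locus with the smallest p was named for each. It was chr17.tRNA994-ArgCCT in liver input (-0.73, edgeR adjusted p = 0.482), chr17.tRNA515-IleTAT in liver pull-down (-1.77, edgeR adjusted p = 0.298), chr13.tRNA82-MetCAT in VsWAT pull-down (2.19, edgeR adjusted p = 0.602), chr11.tRNA1023-ArgTCG in GAS input (0.94, edgeR adjusted p = 0.458) and chr6.tRNA107-ArgCCT in GAS pull-down (-1.08, edgeR adjusted p = 0.0779). In plasma it was chr5.tRNA1318-AlaTGC in both fractions, where LFD 2 stood far above the rest: the pull-down had 51.0 and 24.2 CPM on HFD and 51.8 and 2700 CPM on LFD (-4.92 ± 1.81, edgeR adjusted p = 0.999). No locus was called for a diet effect that differs between pull-down and input in any set (edgeR). In GAS 14 of 53 loci had an unadjusted p under 0.05 in that test. Of the 12 isotype sums there 9 had such a p, with log2 fold changes of all 12 from -4.42 to -0.64 and no call. Shares of all features with such a p are not given here, for diet or for this test. These counts of unadjusted p therefore cannot show whether the loci or sums stand out.

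The mRNA libraries held almost none of these RNAs. Those of liver and kidney had 10 to 163 counts on the 248 loci, 0.000231% to 0.00244% of assigned counts. In liver chr11.tRNA398-TrpCCA was the only locus tested, with 7.68, 5.61 and 8.81 CPM on HFD and 3.82, 9.02 and 3.86 CPM on LFD in pull-down, against 7.04, 10.2 and 8.30 CPM on HFD and 9.23, 1.16 and 1.07 CPM on LFD in input (-0.13 ± 0.47, edgeR adjusted p = 0.819, where 71.7% of all features were called). The inputs at 1.16 and 1.07 CPM are the near-identical pair. Its HFD against LFD values were 1.25 in liver input, 0.26 in liver pull-down and 1.95 in kidney input (edgeR adjusted p = 0.33, 0.705 and 0.351). In kidney 3 loci were tested for the pull-down and none was called (53.2% of all features), with chr1.tRNA583-IleTAT at 2.29 ± 1.11 (edgeR adjusted p = 0.0965); the smallest p for diet in kidney pull-down was that of chr11.tRNA945-ArgCCG (0.85, edgeR adjusted p = 0.949). In kidney input the same locus had 0.943, 0.289 and 0.0509 CPM on HFD and 1.63 and 5.29 CPM on LFD, without overlap and with 1 to 74 counts per library (-3.02 ± 0.86, edgeR adjusted p = 0.351). The test of its diet effect in pull-down against that in input gave 3.82 ± 1.34 (edgeR adjusted p = 0.318), so neither was called.

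Genes that make, trim, modify, charge or cut tRNAs were more often higher than lower in the tissue small RNA pull-downs. Only in liver was the share called higher well above that of all features. In VsWAT and GAS the shares called higher were near those of all features, and the shares called lower were below them in each tissue. Of a list of 83 such genes, liver small RNA pull-down had 31 higher and 3 lower of 59 tested (27.1% and 28.4% of all features), VsWAT 19 and 2 of 74 (21.3% and 23.2%), GAS 20 and 4 of 64 (27.9% and 26.5%), and plasma none of 12, of which 2 had an unadjusted p under 0.05 (edgeR). In liver 9 of 12 synthetases tested were higher and none lower, among them Eprs, the glutamyl-prolyl-tRNA synthetase (1.15 ± 0.17). Alkbh8, which completes a wobble uridine modification, was at 1.48 ± 0.21 in liver, and Bdp1, a subunit of the RNA polymerase III factor TFIIIB, at 1.10 ± 0.12 in VsWAT. Pus10, a pseudouridine synthase, rose by 2.62 ± 0.18 in VsWAT, and Rpp30 of RNase P and the polymerase III subunit Polr3f by 2.12 ± 0.33 and 1.46 ± 0.23 in GAS. Rnase4, a ribonuclease of the angiogenin family, fell by 1.28 in VsWAT and 1.60 in GAS; Rnase4 and Ang may share reads, so their values are uncertain.

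In mRNA the same list was split. Liver pull-down had 23 higher and 20 lower of 79 tested (36.3% and 35.3% of all features) and kidney pull-down 18 and 15 of 81 (26.9% and 26.3%). Rnase4 fell by 2.18 in liver and 2.42 in kidney, Ang by 2.83 in kidney, while the RNA kinase Clp1 was at 1.66 ± 0.14 and Alkbh8 at 1.67 ± 0.14 in liver, and Bdp1 at 1.65 ± 0.19 in kidney. On HFD liver mRNA input had 4 higher and 2 lower of 75 (4.96% and 8.09% of all features), led by the asparaginyl and threonyl synthetases Nars (0.81 ± 0.13) and Tars (0.66 ± 0.14). These inputs include the near-identical pairs HFD 1 with HFD 3 and LFD 2 with LFD 3, so the spread may be understated. Values of these genes with the pairs summed are not given here. Liver mRNA pull-down on HFD had 6 higher and 2 lower of 77 (7.56% and 8.06% of all features); of its 13 synthetases 5 were higher and none lower, with Aars, which charges tRNA-Ala, at 0.53 ± 0.11 and Nars at 0.58 ± 0.12 (edgeR adjusted p = 0.00085 and 0.000984). No list gene was called for diet in kidney mRNA or in any small RNA set (edgeR).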

How the data were processed

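Small RNA and mRNA libraries were sequenced as single reads of 75 bases, per the labels' protocols; STAR, HTSeq and the mm10 build are named in the submitters' processing notes, without versions. The authors deposited raw counts per feature and library, and 12 further libraries of total RNA were not used. The settings for reads that fit several loci and for strand are not given in the sources used here. CPM is the count scaled to the assigned counts of a library, not divided by length, and intervals and floors cover counting error only.

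The tests used edgeR 4.0.16 in R 4.3.3 (quasi-likelihood, robust, TMM scaling, filterByExpr with a minimum count of 10), adjusted over all features by Benjamini-Hochberg with a threshold of 0.05, and were tested on simulated data. Pull-down models had diet as a term. A table with tRNA rows summed by isotype was fitted likewise. The 27 comparisons comprised 6 pull-down, 12 diet, 6 interaction and 3 tissue comparisons. Alternatives were DESeq2 1.42.0, other scalings, no filter, a replicate block, pooled dispersion, summed near-identical libraries, and each library left out. The isotypes, loci and gene lists were chosen with earlier results of these data known.

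Named loci were the 3 with the highest mean input CPM per small RNA tissue and, per comparison, up to 3 called loci in each direction with the largest change and a mean of at least 20 counts, or else the one with the smallest p. Pathway genes were named by smallest p among those called. Same-numbered libraries were taken to deviate together where r was over 0.1 in every pair. Of the sets with 3 or more pairs this held for GAS input with pull-down (r = 0.223 to 0.422). It also held for liver mRNA pull-down on HFD with LFD (r = 0.159 to 0.171), and in no other. Input with pull-down pairs were still all positive in VsWAT (r = 0.044 to 0.383) and in liver small RNA (r = 0.031 to 0.287). Kidney mRNA inputs on HFD with LFD, with 2 pairs, had r = 0.355 and 0.43. RefSeq's GRCm38.p6 table gave locations by chromosome and anticodon.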

Additional observations from a re-analysis of the deposited data

Results flagged for a closer look

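The Tyr sum had CPM ranges of pull-down and input that did not overlap in plasma, liver and GAS, with the order in plasma opposite to that in liver and GAS. Every plasma pull-down library lay above every plasma input library in CPM, a log2 fold change of 2.85 with total-count scaling, whereas every pull-down library of liver and of GAS lay below its inputs. The difference between plasma and liver, and that between plasma and GAS, was not tested. With TMM scaling the plasma value was 0.75 ± 1.04 (SE, edgeR adjusted p = 0.857), and it was not called with total-count scaling either (edgeR adjusted p = 0.0518), which by itself raised the median over all plasma features by 1.94. Plasma inputs held only 14 to 82 Tyr counts per library. Different loci made up the sum in different plasma pull-down libraries. There chr13.tRNA970-TyrGTA had 349 and 0 CPM on HFD and 0 and 261 CPM on LFD. Of the Tyr counts chr14.tRNA192-TyrGTA held 3.74% to 73.7% and chr5.tRNA109-TyrGTA 0% to 62.7%.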

How the results depend on the processing

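Without the filter on low counts the loci called numbered 107 of 162 in liver small RNA pull-down, 96 of 163 in GAS pull-down and 4 of 153 in plasma pull-down, all lower. Liver and kidney mRNA pull-down had 2 each, of 68 and 61, also lower. GAS against liver inputs had 63 of 168, with 18 higher and 45 lower. For diet the unfiltered run gave 13 of 174 in VsWAT input and 9 of 124 in GAS pull-down, all lower on HFD. It gave 2 in kidney input and 1 each in VsWAT pull-down and GAS input. For the interactions it gave 3 in GAS and 1 each in VsWAT and kidney. Shares of all features called without the filter are not given here, so these counts cannot show whether the tRNA loci stand out. Plasma pull-down had 4 calls with total counts and 3 with the dispersion of all 4 groups. VsWAT input on HFD had 7 calls with DESeq2 and 0 with total counts, the dispersion of all 4 groups, summed near-identical libraries or, added after seeing the data, without libraries of high Alb. GAS pull-down on HFD had 3 with DESeq2 and 1 with the dispersion of all 4 groups, and the GAS interaction 2 with DESeq2. The cause was not tested.

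With the replicate block, diet called 2 loci in liver small RNA pull-down and 2 in VsWAT input; GAS pull-down against input had 52 calls with it and 52 without it. The numbers of plasma inputs correlated at -0.509, and the crossed pairing gave 0 calls.

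Leaving out each library gave 2 to 13 calls in plasma pull-down against input and 0 to 1 in kidney pull-down against input (1 without input LFD 1, pull-down LFD 1 or pull-down LFD 2). For diet it gave 0 to 7 in VsWAT input, 0 to 3 in plasma input (3 without LFD 1), 0 to 2 in GAS pull-down (2 without LFD 1, 1 without LFD 2), 0 to 2 in kidney input (2 without HFD 1) and 0 to 1 in liver mRNA input (1 without LFD 1). The mRNA interactions gave 0 to 1 in liver (without input LFD 1) and 0 to 1 in kidney (without input HFD 1). Against liver, summing by anticodon gave -2.01 for Ala in plasma. Which Ala anticodon this value belongs to is not given here, and it need not hold for the others. Without its leading locus the Ala sum of plasma was -1.24, the Arg sum of VsWAT -0.15 and the Gln sum of VsWAT 0.83. With total counts Gln of VsWAT was 0.73 and Met of VsWAT 0.01. Plasma libraries had 221875 to 828030 assigned counts, and mRNA libraries 10 to 163 counts on these loci, which limits the precision of both.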
